A study of Saccharomyces cerevisiae with 2 samples.

Results

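In budding yeast 8 of the small nucleolar RNAs (snoRNAs) annotated in the reference genome lie inside the introns of protein-coding genes, and the reads of these 8 host genes are described here. The members were taken by gene identity, as a fixed list out of the 6698 open reading frames (ORFs) in the table of ORF reads. They were EFB1 (YAL003W), TEF4 (YKL081W), ASC1 (YMR116C), RPL7A (YGL076C), RPL7B (YPL198W), RPS22B (YLR367W), IMD4 (YML056C) and NOG2 (YNR053C). Reads in 100 bp segments, from 500 bp before to 500 bp after each ORF, were used to separate intron from exon.

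RNA bound to Cbc2, a subunit of the nuclear cap binding complex, was purified through a TAP tag on Cbc2 and sequenced. The trf4Δ cells were SK1 diploids with both copies of TRF4 deleted, taken after 6 h in sporulation medium, and the wild type cells were SK1 diploids with TRF4 intact, also taken at 6 h; both strains carried Cbc2-TAP. There was 1 library per genotype, so that no difference below has a replicate check and no p-value was computed. Each library had a sequencing lane of its own and the cultures were diluted to different densities before sporulation, so lane, culture density and genotype cannot be told apart.

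A snoRNA directs the chemical modification of ribosomal RNA by base pairing, with C/D box snoRNAs guiding methylation of ribose and H/ACA box snoRNAs guiding the conversion of uridine to pseudouridine. Most yeast snoRNAs have their own promoters, whereas an intronic snoRNA is transcribed with its host pre-mRNA. It is usually freed after splicing, by opening of the intron lariat and trimming of both ends. Trf4 is a poly(A) polymerase of the TRAMP complex, which marks nuclear RNAs, spliced introns and unspliced pre-mRNAs among them, for the nuclear exosome. The exosome also trims the 3′ ends of snoRNAs.

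The snoRNAs of EFB1 (SNR18), TEF4 (SNR38), ASC1 (SNR24), RPL7A (SNR39), RPL7B (SNR59) and IMD4 (SNR54) are of the C/D class, and those of RPS22B (SNR44) and NOG2 (SNR191) of the H/ACA class. The sequences of SNR44, SNR191, SNR39 and SNR59 are shown, because the results turn most on the H/ACA hosts and on the RPL7 pair. They were taken from RefSeq build R64 and on the strand of the host gene. SNR44 lies at chrXII:856710-856920 and is 211 bases long. SNR191 lies at chrXIV:721938-722211 on the reverse strand and is 274 bases long. SNR39 lies at chrVII:365163-365251 on the reverse strand and is 89 bases long. SNR59 lies at chrXVI:173827-173904 and is 78 bases long. Capitals mark the C box (TGATGA within the first 20 bases) and the D box (CTGA within the last 20 bases) of C/D snoRNAs, and an ACA placed 3 bases before the 3′ end of an H/ACA snoRNA, which SNR44 does not show at its annotated end.
SNR44: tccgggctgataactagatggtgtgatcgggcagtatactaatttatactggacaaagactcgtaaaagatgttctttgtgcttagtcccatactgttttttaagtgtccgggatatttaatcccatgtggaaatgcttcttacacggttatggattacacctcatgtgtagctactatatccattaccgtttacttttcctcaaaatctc
SNR191: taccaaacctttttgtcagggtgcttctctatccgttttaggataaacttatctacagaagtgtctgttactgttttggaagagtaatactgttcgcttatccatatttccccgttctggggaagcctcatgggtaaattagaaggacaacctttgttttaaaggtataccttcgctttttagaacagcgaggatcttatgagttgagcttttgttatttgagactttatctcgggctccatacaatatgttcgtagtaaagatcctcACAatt
SNR39: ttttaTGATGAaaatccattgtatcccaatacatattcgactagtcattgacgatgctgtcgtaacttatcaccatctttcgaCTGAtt
SNR59: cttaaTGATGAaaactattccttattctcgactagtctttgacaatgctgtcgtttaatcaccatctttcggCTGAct

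Searched on the snoRNA strand only, TGATGA was found in this window in 36 of the 45 annotated C/D snoRNAs and in 37 of all 76 snoRNAs (48.7%). CTGA was found in its window in 43 of the 45 and in 47 of all 76 (61.8%). A CTGA followed by TGA overlaps a TGATGA, which is the case at the 3′ end of SNR24. ACA stood 3 bases before the end in 14 of 29 annotated H/ACA snoRNAs and in 17 of all 76 (22.4%). SNR39 and SNR59, from the introns of 2 paralogous ribosomal protein genes, share a run of 14 bases just before the D box, atcaccatctttcg. A 13-base stretch within this run, and so present in both snoRNAs, is complementary to bases 804 to 816 of 25S rRNA. It is the longest such match of SNR39. The longest match of SNR59 is a different one, outside the shared run. It covers 16 bases, positions 8 to 23 of SNR59, and is complementary to bases 1809 to 1824 of 25S rRNA. This match begins inside the C box, and pairing with rRNA was not tested.

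The 10 introns in the coding sequences of the 8 genes are long, with a median of 408.5 bases against 141 for the 281 annotated introns. All 10 begin with GTATGT, the usual 5′ splice site of yeast, as do 73.0% of all annotated introns. TACTAAC, the usual branch site, was found in 8 of the 10 and in 82.6% of all introns. The 2 host introns without these letters are the first introns of RPL7A and RPL7B, which hold no snoRNA. A missing match says only that these letters do not occur in the intron.

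The segments held 29687088 reads in trf4Δ against 22092372 in wild type. Read numbers below are as counted, and all fold changes, log2 differences and reads per kb were computed after multiplying wild type reads by 1.34, which gives both libraries the same total. A log2 difference is trf4Δ minus wild type, and its interval is the 95% interval that counting error alone allows. With this scaling the median log2 difference over the 6246 ORFs with more than 64 reads in either library was -0.97, so that most ORFs had a smaller share of the reads in trf4Δ. PAP2, the name under which the deleted TRF4 gene is listed, had 1 read in trf4Δ and 346 in wild type, 465-fold lower (interval 82.9 to 18417). DMC1, HOP1, IME2, SPO11 and ZIP1, which are expressed in meiosis, had between 897 and 9479 ORF reads in trf4Δ and between 1455 and 16711 in wild type. In bulk RNA of this kind, fewer cells that make a transcript and less of it per cell cannot be told apart.

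At the level of the whole ORF the 8 host genes split into 2 groups. RPL7A and RPL7B had more reads in trf4Δ, and the other 6 had fewer. More than 4-fold higher reads in trf4Δ were found for 2 of 8 host genes, where 8.1% of all ORFs passed the same limit, and more than 4-fold lower reads for 0 of 8, where 10.5% of all ORFs did. More than 2-fold lower reads were found for 6 of 8, beside 48.9% of all ORFs. The median over the 8 was -1.44. On SGD1.01 coordinates the ORFs lie at chrI:142176-143162 (EFB1), chrXI:282535-284099 (TEF4), chrXIII:499455-500687 (ASC1), chrVII:364338-365999 (RPL7A), chrXVI:173151-174701 (RPL7B), chrXII:856441-857316 (RPS22B), chrXIII:162194-164176 (IMD4) and chrXIV:721122-723113 (NOG2), with ASC1, RPL7A, IMD4 and NOG2 on the reverse strand.

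RPL7B, which encodes a protein of the large ribosomal subunit, had 8812 ORF reads in trf4Δ against 614 in wild type, 10.7-fold higher (log2 3.42, interval 3.30 to 3.54). Its paralog RPL7A had 2934 reads in trf4Δ against 477 in wild type, 4.58-fold higher (log2 2.19, interval 2.05 to 2.34). In reads per kb, RPL7B was the highest of the 8 in trf4Δ, with 5682, whereas in wild type it had 532 and ranked the fifth.

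The hosts with fewer reads in trf4Δ include both host genes of translation elongation factors. EFB1, the nucleotide exchange subunit of elongation factor 1B, had 1062 reads in trf4Δ against 2457 in wild type (log2 -1.64, interval -1.74 to -1.53). TEF4, its gamma subunit, had 1125 reads in trf4Δ against 2361 in wild type (log2 -1.50). RPS22B, a protein of the small ribosomal subunit, had 1255 reads in trf4Δ against 2439 in wild type (log2 -1.38).

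The remaining 3 had the fewest reads per kb of the 6 in both libraries. ASC1, the yeast RACK1 protein on the small ribosomal subunit, had 196 reads in trf4Δ against 439 in wild type (log2 -1.59, interval -1.84 to -1.34). IMD4, of the IMP dehydrogenase family that makes guanine nucleotides, had 318 reads in trf4Δ against 699 in wild type (log2 -1.56). NOG2, a GTPase needed for maturation of the large ribosomal subunit, had 922 reads in trf4Δ against 1380 in wild type (log2 -1.01, interval -1.13 to -0.89), which is at the median of all ORFs. Relative to that median the 6 genes lay between -0.67 and -0.04.

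**Figure D1:**
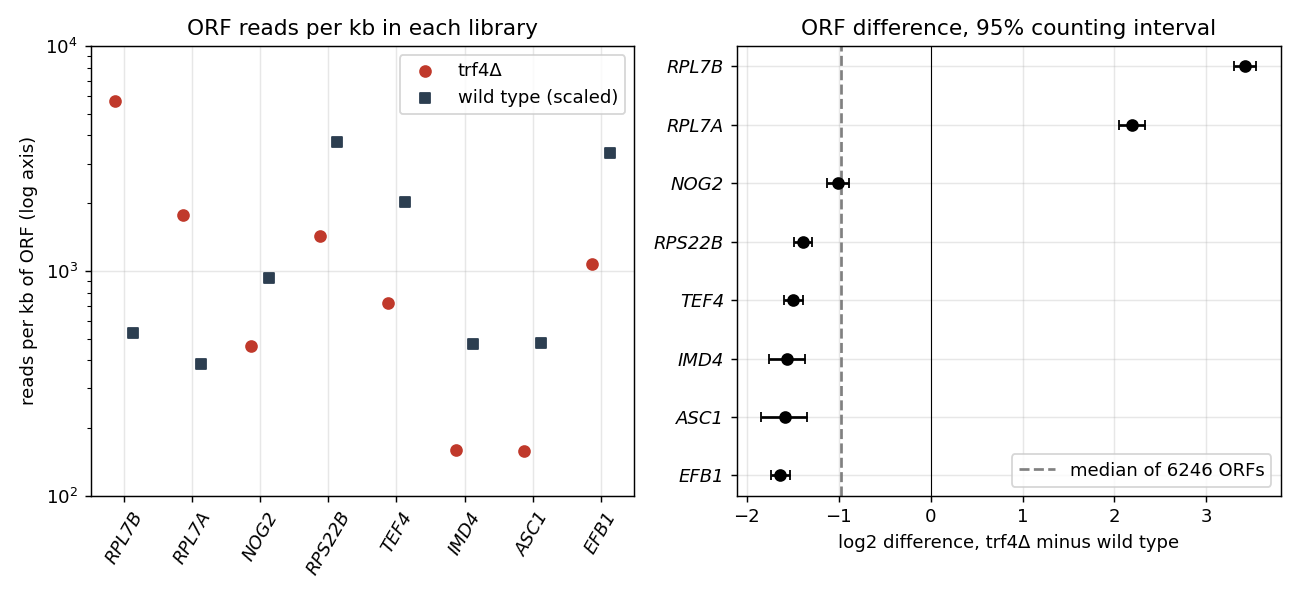
Left, ORF reads per kb of each host gene in trf4Δ (red circles) and wild type (dark squares, scaled to the trf4Δ total) on a log axis. Right, log2 difference of ORF reads, trf4Δ minus wild type, with the 95% counting interval of 1 library per genotype; the dashed line is the median of 6246 ORFs (-0.97), below which 6 of the 8 genes lie, NOG2 by 0.04 only.

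Within RPL7B the first intron, which holds no snoRNA, had more reads in trf4Δ and a higher log2 difference than the intron that holds SNR59. Intron 1 had 3820 reads over 3 segments in trf4Δ against 129 in wild type (log2 4.46, interval 4.21 to 4.73). Single segments of intron 1 had 1638, 937 and 1245 reads in trf4Δ, against 80, 16 and 33 in wild type. The segment with 937 reads had the highest log2 difference of the whole RPL7B window, 5.45.

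Past exon 2 the level in trf4Δ dropped. The 2 segments that hold exon 2 with parts of the introns had 1606 and 1637 reads in trf4Δ, against 112 and 225 in wild type, while the 3 segments of intron 2 had 114, 153 and 153 reads in trf4Δ, against 17, 32 and 37 in wild type. The SNR59 segment, the middle one, had more reads in trf4Δ than the segment 5′ of it and as many as the segment 3′ of it. Intron 2 as a whole had 420 reads in trf4Δ against 86 in wild type (log2 1.86).

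Exon 3 of RPL7B had 2849 reads in trf4Δ against 195 in wild type (log2 3.44). The coding sequences of RPL7A and RPL7B are 96.7% identical, with 24 differences in 735 bases, so that a mapping of unique reads drops those that fit both genes. In exon 3 of RPL7B, 27.4 to 97.0% of the 36-base words in a segment recur elsewhere in the genome. Counts there are too low in both libraries if only unique reads were kept, as the study's methods state for the reference genome. YPL197C, an ORF on the opposite strand that overlaps exon 3, had 1812 reads in trf4Δ against 86 in wild type, and since the library preparation marks no strand its reads and those of RPL7B cannot be told apart.

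Like RPL7B, RPL7A gained reads in exon 3, but in RPL7A this was the part with the largest gain. Exon 3 had 1840 reads in trf4Δ against 171 in wild type (log2 3.00), intron 1 had 264 in trf4Δ against 63 in wild type (log2 1.64) and intron 2, with SNR39, had 262 in trf4Δ against 127 in wild type (log2 0.62, interval 0.31 to 0.94). The segment at the end of the ORF had the largest difference in the window, with 1581 reads in trf4Δ against 74 in wild type (log2 3.99). The SNR39 segment had 65 reads in trf4Δ against 40 in wild type, beside 99 in trf4Δ and 44 in wild type in the intron segment 5′ of it. In exon 3, 2 segments had at most 1 read in both libraries, and in these 73.3 and 100% of the 36-base words recur elsewhere. The other segments wholly within exon 3, with 71.1 to 83.0% of such words, had 280 to 1023 reads in trf4Δ and 50 to 68 in wild type.

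**Figure D2:**
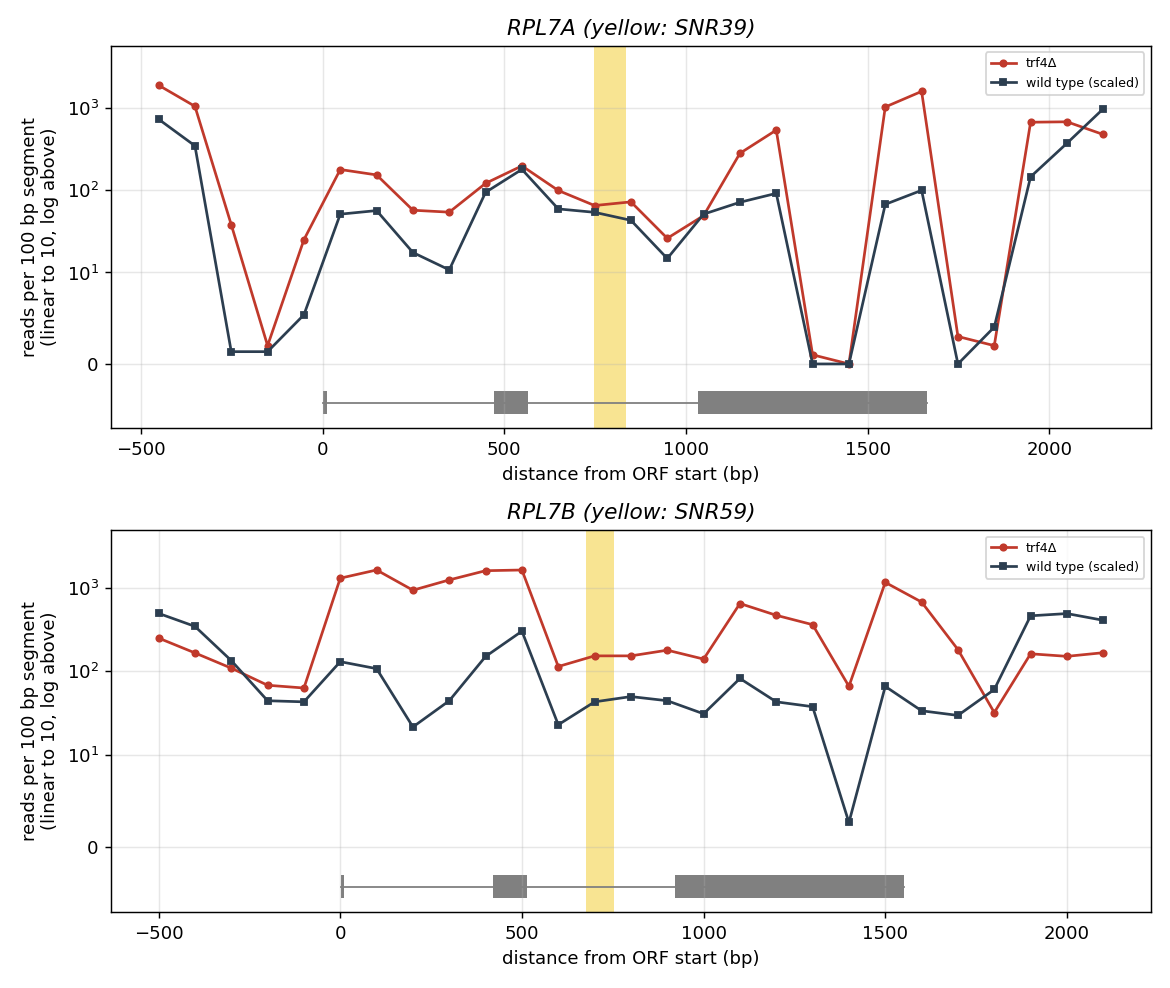
Reads in each 100 bp segment (wild type scaled to the trf4Δ total) against the distance of the segment's centre from the ORF start, for RPL7A above and RPL7B below, with exons as grey boxes and the snoRNA in yellow; the vertical axis is linear to 10 and logarithmic above. In RPL7B the trf4Δ line stays at or above 937 reads over intron 1 and exon 2 and drops to 114 at the start of intron 2. In RPL7A the lines lie close over exon 2 and intron 2 and far apart near the end of exon 3. They also meet within exon 3, at segments with 0 or 1 read in trf4Δ and 0 in wild type.

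Unlike the RPL7 pair, the hosts of the 2 H/ACA snoRNAs had fewer reads over the snoRNA in trf4Δ. SNR18, the C/D snoRNA of EFB1, had a log2 difference of -0.59 (interval -0.93 to -0.25). This is above the median difference of all segments, -0.96, so the direction for SNR18 depends on the scaling. In RPS22B the 2 segments that are mostly SNR44 had 180 and 113 reads in trf4Δ, against 1115 and 940 in wild type. Summed, they had 293 reads in trf4Δ against 2055 in wild type (log2 -3.24, interval -3.42 to -3.06). The intron segments on either side had 46 and 45 reads in trf4Δ and 26 and 43 in wild type, so that a peak over the snoRNA stood above its own intron in both libraries and was much the higher in wild type.

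SNR44 segments held most of the segment reads inside the RPS22B ORF in wild type, 2055 of 3132. With intron included, the RPS22B ORF was lower in trf4Δ, but exon 2 had 865 reads in trf4Δ against 657 in wild type (log2 -0.03, interval -0.18 to 0.12), above the median of all ORFs. The 2 segments with exon 1 were lower in trf4Δ, with 129 and 132 reads in trf4Δ against 210 and 205 in wild type. The ORF value of RPS22B is thus a mixture of a snoRNA and an mRNA.

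NOG2 had the same form at a lower level. The 3 segments over SNR191 had 72, 115 and 60 reads in trf4Δ, against 171, 316 and 220 in wild type, and in sum 247 in trf4Δ against 707 in wild type (log2 -1.94). The intron segments at the 2 sides had 5 reads each in trf4Δ, and 3 and 5 in wild type. NOG2 exon 1 had 352 reads in trf4Δ against 698 in wild type (log2 -1.41), whereas exon 2 had 478 reads in trf4Δ against 307 in wild type (log2 0.21, interval 0.00 to 0.42).

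Within exon 2 of NOG2 the difference changed sign along the gene. Its first segment had 38 reads in trf4Δ against 75 in wild type (log2 -1.41), and the segment nearest to the end of the ORF had 169 reads in trf4Δ against 60 in wild type (log2 1.07), the most reads of any NOG2 segment in trf4Δ. NOG2 is 1 base shorter in the deposited table than in R64, so that its exon and intron borders are good to 1 base only.

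**Figure D3:**
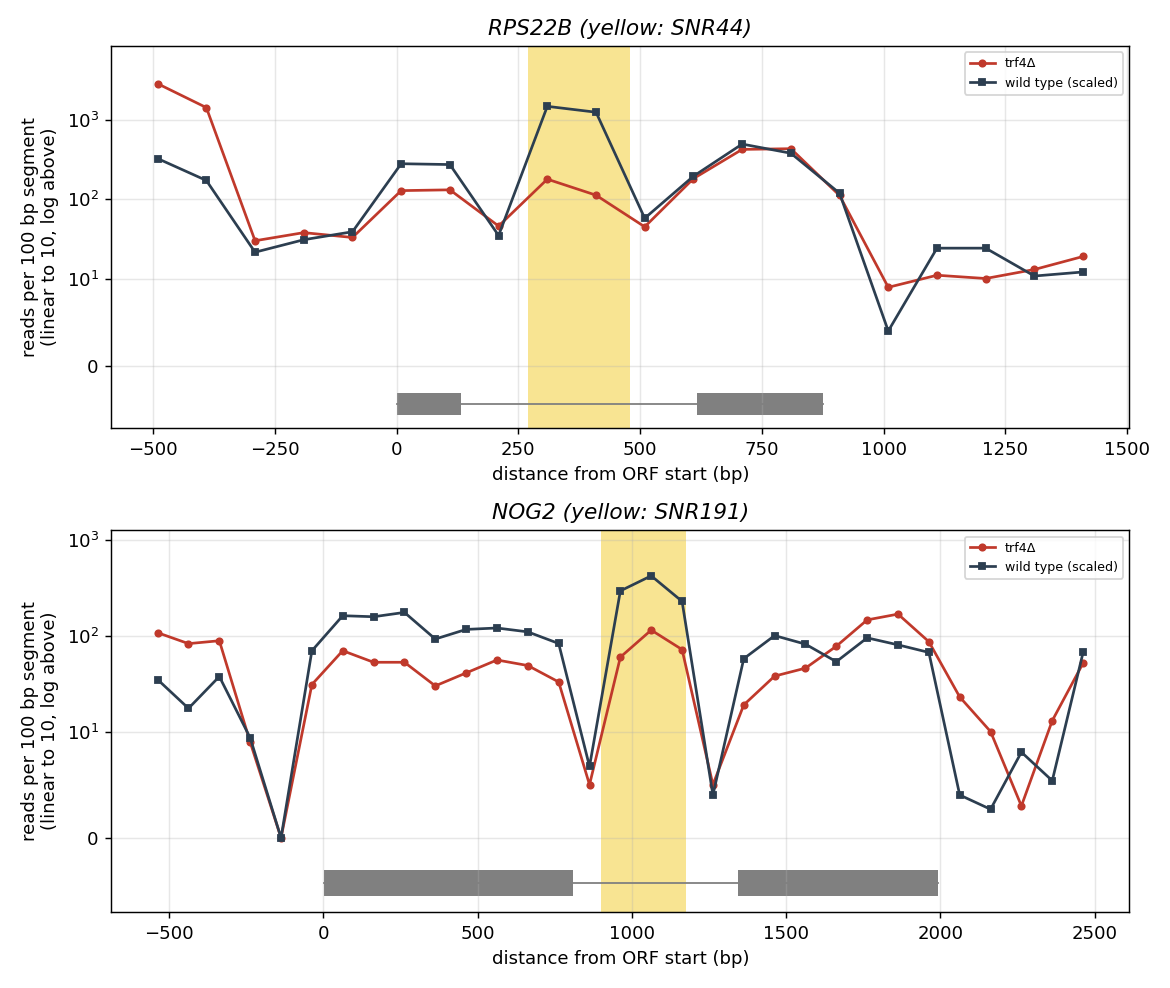
Reads in each 100 bp segment (wild type scaled to the trf4Δ total) against distance from the ORF start for RPS22B above and NOG2 below, with exons as grey boxes, the H/ACA snoRNA in yellow, and a vertical axis that is linear to 10 and logarithmic above. Both libraries peak over the snoRNA, with trf4Δ lower than wild type (before scaling, 293 reads in trf4Δ and 2055 in wild type over SNR44, and 247 in trf4Δ and 707 in wild type over SNR191), and in both genes trf4Δ reaches or passes wild type in exon 2.

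The other 4 hosts, EFB1, TEF4, ASC1 and IMD4, hold C/D snoRNAs. SNR18 in EFB1 had 142 reads in trf4Δ against 159 in wild type in the segment that holds most of it (log2 -0.59, interval -0.93 to -0.25). The intron segment 3′ of it had 19 reads in trf4Δ against 14 in wild type, so that a peak over SNR18 was present in both libraries. EFB1 exon 2 had 622 reads in trf4Δ against 1979 in wild type (log2 -2.10), below the value of the intron, which had 249 reads in each library (log2 -0.43).

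TEF4, ASC1 and IMD4 had few intron reads. The segment with most of SNR38 had 24 reads in trf4Δ against 5 in wild type, and that with most of SNR24 had 25 in trf4Δ and 12 in wild type. For SNR54 in IMD4 the values were 15 reads in trf4Δ against 10 in wild type. At these counts only the SNR38 difference had an interval that leaves out 0 (log2 1.84, interval 0.42 to 3.58); the intervals for SNR24 (-0.41 to 1.76) and SNR54 (-1.09 to 1.47) include it, and a difference was not detectable at this depth.

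Every segment wholly within an exon of these 3 genes was lower in trf4Δ. TEF4 exon 2 had 1042 reads in trf4Δ against 2360 in wild type (log2 -1.61), ASC1 exon 1 had 96 in trf4Δ against 304 in wild type (log2 -2.09) and IMD4 exon 2 had 284 in trf4Δ against 715 in wild type (log2 -1.76). In TEF4 the deficit shrank toward the 3′ end, with log2 -2.28 in the segment at 816 bp from the ORF start, -0.77 at 1416 bp and -0.33 at the end of the ORF, where trf4Δ had 192 reads and wild type 180. Downstream of the ORF it turned to an excess, with 118 reads in trf4Δ against 19 in wild type in the segment centred 1716 bp from the start (log2 2.21).

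**Figure D4:**
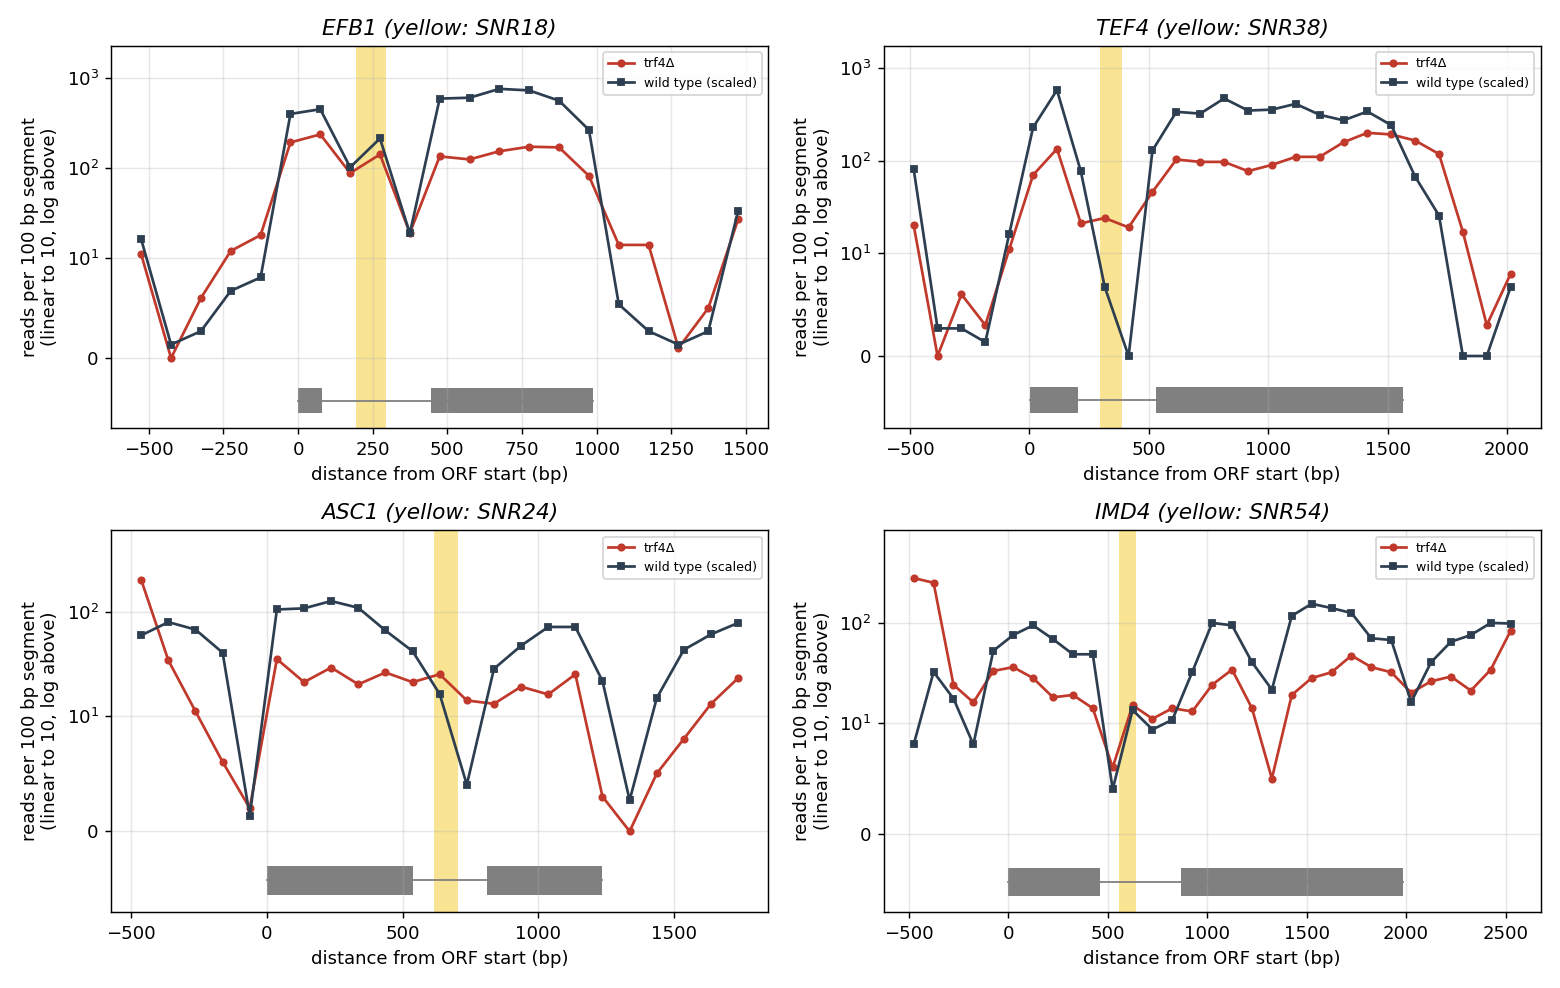
Reads in each 100 bp segment (wild type scaled to the trf4Δ total) against distance from the ORF start for EFB1, TEF4, ASC1 and IMD4, with exons as grey boxes, the C/D snoRNA in yellow, and a vertical axis that is linear to 10 and logarithmic above. The trf4Δ line lies below wild type over nearly all exon segments, comes closer to it or passes it over the introns (249 reads in trf4Δ against 249 in wild type over the EFB1 intron before scaling), and lies above it downstream of TEF4 and at the 5′ edge of the ASC1 and IMD4 windows.

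Set against the 65 snoRNA genes that lie outside introns and could be placed, the intronic ones had lower medians in both libraries. The 65 hold C/D and H/ACA genes, and the comparison was not matched by class. Those 65 had a median of 682 reads per segment in trf4Δ and of 379 scaled reads in wild type, with a median log2 difference of 1.45 and a range from -1.83 to 4.93, and 50 of the 65 were higher in trf4Δ. The 8 intronic snoRNAs had medians of 73.7 reads per segment in trf4Δ and 48.4 in wild type, and a median log2 difference of 0.22. SNR44 lay below the whole range of the 65, and SNR191 just below it.

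The ratio of intron to exon reads does not depend on the scaling between the libraries. For each gene the reads per intron segment were divided by the reads per exon segment, with segments that straddle a border left out. In TEF4 the intron level was 18.3% of the exon level in trf4Δ and 0.90% in wild type, a log2 difference of 4.35 that rests on 5 intron reads in wild type (interval 3.01 to 5.69). With border segments assigned to the part they overlap most, it was 0.60 for TEF4. In ASC1 it was 87.5% in trf4Δ and 11.8% in wild type (log2 2.89, with 15 intron reads in wild type).

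IMD4 and EFB1 followed with smaller values. The intron level of IMD4 was 42.8% of the exon level in trf4Δ and 10.7% in wild type (log2 2.00), and that of EFB1 was 53.4% in trf4Δ and 16.8% in wild type (log2 1.67, interval 1.38 to 1.95). In RPL7B introns and exons were both high in trf4Δ, with 149% in trf4Δ and 110% in wild type (log2 0.43). This sign came from intron 1: with only the intron that holds SNR59 the value for RPL7B was -1.58. Every RPL7B exon segment in the ratio holds words that recur elsewhere in the genome. If only unique reads were kept, its exon level is too low and its percentages are too high in both libraries.

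The ratio was smaller in trf4Δ in 3 genes. For RPL7A it was 20.4% in trf4Δ and 79.4% in wild type (log2 -1.96, interval -2.29 to -1.63), with exon 3 high in trf4Δ. All RPL7A exon segments in the ratio also hold recurring words, so the limit given for RPL7B holds here too. NOG2 gave 74.3% in trf4Δ and 171% in wild type (log2 -1.20), and RPS22B 22.2% in trf4Δ and 162% in wild type (log2 -2.86). When the segments with SNR44 bases were left out, RPS22B kept 1 intron segment and gave 0.43, so its low value lay over the snoRNA itself.

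Of the 7 host genes with equal length in both annotations, 5 had a larger intron to exon ratio in trf4Δ, where 87.5% of the 112 other intron-containing ORFs with at least 64 exon reads in both libraries did. The host median was 1.67, beside 1.43 for the other ORFs, with lower and upper quartiles of 0.64 and 2.12. With only the introns that hold snoRNAs 4 of the 7 had a larger ratio, and with border segments assigned by the larger overlap the host median was 0.65, beside 0.78 for the other ORFs. RPS22B was below all 112, of which the lowest were RPL20B (-1.98), RPL2A (-1.59) and YPR153W (-1.59), and TEF4 was within the range set by the highest, RPL23A (4.41), RPS4A (4.31) and GLC7 (4.20).

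**Figure D5:**
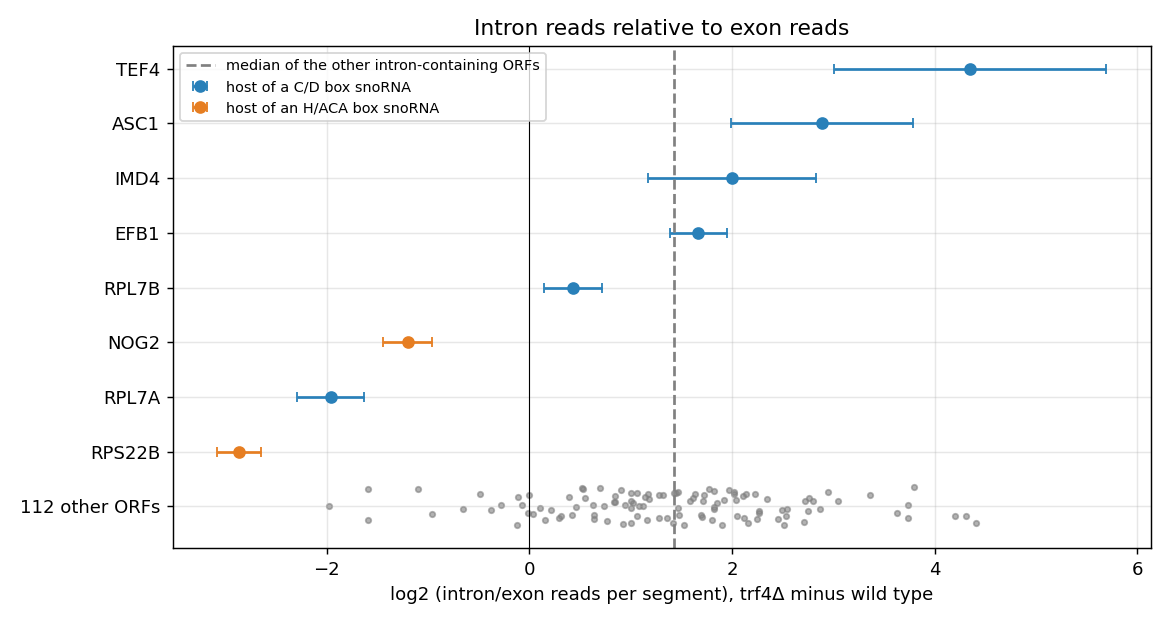
Log2 ratio of intron to exon reads per segment, trf4Δ minus wild type, for each host gene with its 95% counting interval (blue, C/D hosts; orange, H/ACA hosts) and for the 112 other intron-containing ORFs (grey points, spread vertically at random; dashed line, their median of 1.43). TEF4, at 4.35, is near the upper end of the grey points (0.60 with border segments assigned by the larger overlap), and RPS22B, at -2.86, is below all of them.

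Over the 8 windows, 206 segments were examined and 110 had at least 64 reads in either library. More than 4-fold higher reads in trf4Δ were found in 26 of the 110 (23.6%), where 18.3% of all such segments passed the limit, and more than 4-fold lower reads in 17 (15.5%), where 16.3% of all did. With the median difference of all segments set to 0 the counts were 38 higher and 2 lower, beside 26.8% and 0.603% of all segments. RPL7B alone held 16 of the 26 and RPL7A 4. Without these 2 genes 6 of 69 segments were more than 4-fold higher. The 17 lower segments lay in EFB1 (4), IMD4 (4), TEF4 (3), ASC1 (3), RPS22B (2) and NOG2 (1).

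Segments more than 4-fold higher in trf4Δ were joined into regions of at least 300 bp where their starts lay at most 300 bp apart, after the script the study used for its cryptic unstable transcripts (CUTs), so that a region can hold segments below the limit. Of the 1573 regions 3 overlapped a host window, each a different one of the 8, where 39.5% of all nuclear ORF windows met a region. The regions held 28 of the 206 host segments, beside 7.94% of all nuclear segments. On SGD1.01 coordinates, the first covered the 3′ part of RPL7A and its downstream flank (chrVII:364001-364800, 3814 reads in trf4Δ against 303 in wild type). In it 4 of 8 segments passed the limit, with at most 2 in a row. Another covered all of RPL7B (chrXVI:173101-174900, 12675 reads in trf4Δ against 924 in wild type). The last lay upstream of RPS22B (chrXII:854701-856100, 16226 reads in trf4Δ against 653 in wild type, log2 4.21).

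The region upstream of RPS22B stopped short of the gene. The segments centred at -490.5 and -390.5 bp from the ORF start had 2896 and 1445 reads in trf4Δ against 244 and 129 in wild type, and the next 3 toward the gene had 30, 38 and 33 reads in trf4Δ against 16, 23 and 29 in wild type. RPS22B is known to have another intron ahead of its start codon, which the annotation used here does not list, and whether these reads lie in it was not tested. Upstream of IMD4 the 2 outermost segments had 250 and 279 reads in trf4Δ against 24 and 6 in wild type (log2 2.95 and 5.11), and 5.11 was the highest difference in any window but that of RPL7B.

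Smaller excesses in trf4Δ flanked other hosts. The outermost upstream segment of ASC1 had 202 reads in trf4Δ against 44 in wild type (log2 1.77). Upstream of NOG2, segments in ESF2, an ORF on the same strand that encodes an rRNA processing factor, had 89, 83 and 108 reads in trf4Δ against 28, 13 and 26 in wild type. The highest segment upstream of RPL7A, with 1880 reads in trf4Δ against 541 in wild type, holds SNR39B, a C/D snoRNA gene that lies outside introns.

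Neighbouring ORFs that reach into the windows were mostly lower in trf4Δ. HNM1, YPL199C, CMP2, FMP24, POP2 and OXR1 had log2 differences between -1.77 and -0.70. MDM30, downstream of RPS22B, was higher, with 3383 reads in trf4Δ against 237 in wild type (log2 3.41), as was ESF2 (477 reads in trf4Δ against 142 in wild type, log2 1.32).

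Genes that act on snoRNAs or are related to the hosts were compared by their ORF reads. Of 8 core proteins of snoRNA particles, 2 were more than 4-fold lower in trf4Δ and 0 more than 4-fold higher, with a median of -1.36, where 10.5% of all ORFs were lower, 8.1% were higher and the median was -0.97; these shares apply to the lists that follow too. SNU13, which binds C/D snoRNAs, was the lowest (577 reads in trf4Δ against 2053 in wild type, log2 -2.26), NOP10, of the H/ACA particle, was next (log2 -2.12), and CBF5, the pseudouridine synthase, was the highest (log2 0.78). Of 9 assembly factors 1 was more than 4-fold higher, SHQ1 (log2 2.34), and 1 lower, RVB2 (log2 -2.36), with a median of -0.87.

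Of 7 genes for the release and trimming of intronic snoRNAs, with a median of 0.45, 1 was more than 4-fold higher in trf4Δ. It was PRP43, the helicase that takes apart the spliced lariat, with 7954 reads in trf4Δ against 770 in wild type (log2 2.94). DBR1, the enzyme that opens the lariat, was the lowest, with 239 reads in trf4Δ against 679 in wild type (log2 -1.93).

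Among 8 other translation elongation factor genes, 3 were more than 4-fold lower in trf4Δ (TEF1, TEF2 and HYP2, the lowest at log2 -3.13) and 1 was more than 4-fold higher, EFT1, a gene of elongation factor 2 (2937 reads in trf4Δ against 150 in wild type, log2 3.87), with a median of -1.63. EFT1 has a nearly identical copy, EFT2, and TEF1 and TEF2 are nearly identical to each other, so the reads of these genes are uncertain. The paralogs of hosts without a snoRNA went different ways. IMD2 was higher in trf4Δ, with 3763 reads against 289 in wild type (log2 3.28), and IMD3 too (log2 1.15), whereas RPS22A (log2 -1.02) and CAM1, the paralog of TEF4 (log2 -1.60), were lower. The IMD genes are similar in sequence. Reads shared between them are lost if only unique reads were kept, as the study's methods state for the reference genome.

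The other 134 ribosomal protein genes had a median log2 difference of -1.07, with 5 more than 4-fold higher in trf4Δ and 23 more than 4-fold lower, beside 8.1% and 10.5% of all ORFs. The highest of them reached 2.87, so that RPL7B, at 3.42, lay above all the rest of this class and RPL7A, at 2.19, within its range.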

How the data were processed

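Cbc2-associated RNA of 1 trf4Δ and 1 wild type library was analysed. Per the submitters' processing notes, reads were trimmed with Trim Galore 0.3.5 and mapped with Bowtie 0.12.7; per the study's methods the genome was SGD1.01 (unique reads) or an SK1 assembly (non-unique reads placed at random), and reads were summed in SeqMonk. Which mapping the tables hold is not named in the sources used here. The deposited positions are on SGD1.01 coordinates, for which the study's methods kept unique reads only. The authors deposited log2 values: in the segment table log2 of whole reads per 100 bp segment, not normalised, with 0.9 for 0 reads, and in the ORF table log2 reads with wild type multiplied by 1.34. Raising 2 to the deposited log2 values, and dividing the wild type ORF values by that factor, gave whole reads within 0.05 for 99.99% of segment values and 99.96% of ORF values above 0 reads. Reads at the border of 2 segments are counted in both, so sums over segments exceed ORF reads, and no strand is marked. Nearly identical genes lose reads in both libraries if only unique reads were kept. The exon 3 segment of RPL7A in which 100% of the words recur elsewhere had 0 reads in both libraries.

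Segments of 37S pre-rRNA (139 of 121639) were left out, and wild type reads were scaled to the trf4Δ total (factor 1.34). Folds used a floor of 3 reads, except that of PAP2, which is the plain ratio of its counts, and the joining of regions, which took 0 reads as 0.9. Calls required at least 64 reads in either library (segments) or more than 64, after scaling (ORFs), and more than 4-fold. Regions joined segments with starts at most 300 bp from each other and never crossed a chromosome end, and their segments past the limit averaged more than 64 reads in trf4Δ (mean of log2 values). Intervals are 95% exact binomial intervals on the 2 counts, or normal on log counts for intron to exon ratios. They cover counting error only, and PCR copies are not independent molecules. R64 borders of exons, introns and snoRNAs were used as distances within ORFs of equal length in both builds, NOG2 excepted; snoRNA genes outside introns were placed where both flanking ORFs were shifted alike, and 65 could be. A segment was given to a snoRNA if it held at least 50 of its bases, a limit chosen after the files were seen. For the intron to exon ratios with only or without snoRNA segments, any segment with a snoRNA base counted as a snoRNA segment. No p-value was computed.

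The text names all 8 hosts and their snoRNAs, the extreme and the fullest segments of each window, neighbouring ORFs in the windows, PAP2, the 3 highest and 3 lowest other intron-containing ORFs, and the members of each gene list that passed 4-fold or were its highest and lowest. Other segments, intervals and list members were named after their values were seen. Members and lists were chosen with earlier results of these data known. Alternatives changed the scaling, the fold and read limits, the assignment of segments and the genes included. Scripts were tested on simulated data. Tables were handled with pandas 2.3.3 and numpy 2.4.6 in Python 3.11.15, intervals came from scipy 1.17.1, and figures from matplotlib 3.10.9.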

Additional observations from a re-analysis of the deposited data

How the results depend on the processing

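The scaling sets the size of the ORF differences but, NOG2 apart, not their direction. The median over the 8 hosts was -1.44, and became -0.47 with the median difference of all ORFs set to 0 and -1.01 with no scaling. Each host kept its sign under all 4 scalings. NOG2, at -0.04 with the median set to 0, has no clear direction there. Its interval (-1.13 to -0.89) includes the median of all ORFs (-0.97). Of 110 host segments 26 were more than 4-fold higher and 17 lower, beside 18.3% and 16.3% of all segments. With that centring (on segments) 38 were higher and 2 lower, beside 26.8% and 0.603% of all. With no scaling 33 were higher and 5 lower, beside 21.8% and 4.90% of all. At more than 2-fold 49 were lower, beside 49.3% of all. At more than 8-fold 15 were higher and 2 lower, beside 10.7% and 0.523% of all. Leaving out RPL7A and RPL7B, an alternative chosen after seeing the data, left 6 of 69 more than 4-fold higher, beside 18.3% of all.

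The median intron minus exon difference of 1.67 became 0.65 with border segments assigned by the larger overlap, where TEF4 gave 0.60 and the median of the other ORFs was 0.78; the cause was not tested. It was 0.88 without snoRNA segments and 2.00 without segments with repeated words, both over 5 genes, and 1.05 with NOG2 added, also chosen after seeing the data. Leaving out snoRNA segments removed TEF4 and ASC1, and leaving out repeated words removed RPL7A and RPL7B, which kept no exon segment. RPL7B turned negative with only the snoRNA intron (-1.58), only snoRNA segments (-1.72) or the median over segments (-0.23), and RPS22B turned positive without snoRNA segments (0.43). Hosts with a larger ratio were 5 of 7, beside 87.5% of the other ORFs, and 5 of 7 with border segments reassigned, beside 81.1%. By the median over segments they were 4 of 7, beside 87.5%, and with NOG2 added 5 of 8, beside 87.8%. No share of other ORFs was computed for the rest. There the count was 4 of 7 with only snoRNA segments or only the snoRNA intron. It was 4 of 5 without snoRNA segments or without repeated words, and 5 of 7 with only exon segments downstream of the snoRNA intron.

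No paired analysis was possible because there is 1 library per genotype, which also means that a library cannot be left out. TEF4, ASC1 and IMD4 had at most 43 intron reads per library.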
